A study of Mus musculus with 6 samples.

Results

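The respiratory chain passes electrons from NADH and succinate to oxygen through complexes I to IV, and ATP synthase, complex V, uses the proton gradient that 3 of these complexes build. To follow its genes, every protein-coding gene was taken whose GENCODE symbol starts as those of the subunits do, Nduf followed by a, b, c, s or v and a number, Sdha to Sdhd, Uqcr, Cox4 to Cox8, Atp5 or mt-. This gave 100 genes of 55416 in the table, 87 of the nuclear genome and 13 of the mitochondrial genome. By symbol, the nuclear genes comprised 37 of complex I, 4 of complex II, 8 of complex III, 19 of complex IV and 19 of complex V, and the mitochondrial genes 7, 0, 1, 3 and 2 of the same complexes. Ndufa4 was kept with complex I by its symbol, although its protein is now placed in complex IV, and Cox5b-ps is a pseudogene by name that is annotated as protein-coding.

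The counts come from 3 libraries of WT EpiLCs and 3 of Oct6 KO EpiLCs, and the question was how the loss of Oct6 (official symbol Pou3f1), a POU transcription factor of the formative state, changed gene expression. EpiLCs are the formative, post-implantation-like cells that naïve mESCs give rise to, and both groups were collected after 48 h in N2B27 with 1% KSR, bFGF and Activin A on fibronectin, having been kept before in 2i + LIF. Bulk libraries were made from total RNA after depletion of ribosomal RNA, so that transcripts with and without a poly(A) tail were both read. The sample labels give bFGF as 12 ng/ml and Activin A as 20 ng/ml. WT EpiLCs came from 46C, an mESC line with GFP in the Sox1 locus, and KO EpiLCs from 1 clone of that line with a homozygous insertion of a single base in the coding sequence of Oct6, so that the genotype and the history of the clone cannot be told apart. Library totals ran from 10995505 to 14680930 counts, and values below are CPM, counts scaled to a common library size after TMM normalization, as mean ± SD of 3 libraries. Pou3f1 itself had 2156, 1563 and 1805 counts in WT and 1567, 1825 and 1708 in KO libraries, and since such an insertion need not lower the transcript these values do not check the labels. The 8 markers of formative cells summed to between 3499 and 3875 CPM in WT and between 3359 and 3481 in KO libraries, and of these markers Otx2, Fgf5 and Sox2 were higher in KO EpiLCs and none was lower (log2 fold changes 0.92, 0.65 and 0.42, edgeR adjusted p = 1.7e-04, 3.8e-04 and 0.0283). Markers of primitive endoderm summed to at most 4.77 CPM in WT and 12.8 in KO, of trophectoderm to 11.9 and 16.8, of mesoderm to 1.22 and 0.977, of fibroblast feeders to 19.8 and 12.3 and of neural cells to 43.7 and 31.5, with no marker at 0 in all libraries. Among them Gata6 (1.35), Pdgfra (0.94), Eomes (0.87) and Neurod1 (0.95) were higher and Thy1 (−1.22), Sox1 (−1.78) and Tubb3 (−0.61) lower by edgeR (log2 fold changes in parentheses), and their part in the values below was not tested.

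The chain is built from both genomes. The mitochondrial DNA encodes the hydrophobic core of complexes I, III, IV and V, whereas complex II and the other subunits, among them the isoforms that some tissues use in place of the common ones, are nuclear. Naïve mESCs use both glycolysis and respiration, and later pluripotent cells are known for a stronger reliance on glycolysis.

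The nuclear genome holds a long copy of mitochondrial DNA, nearly letter for letter, which spans several of the mitochondrial genes. An alignment of the mitochondrial genome (GRCm39, chromosome M) to the nuclear one found a stretch of 4654 bases on the minus strand at chr1:24650616-24655269 that was 99.936% identical to positions 6390 to 11042 of the mitochondrial genome. The edge of that copy lies within mt-Co1, whose gene spans positions 5328 to 6872, and both sequences are given to show how little tells them apart. The first comes from chrM:6330-6449 on the plus strand and the second from chr1:24655210-24655329 on the minus strand, with capitals from the edge of the copy onwards.
mitochondrial genome: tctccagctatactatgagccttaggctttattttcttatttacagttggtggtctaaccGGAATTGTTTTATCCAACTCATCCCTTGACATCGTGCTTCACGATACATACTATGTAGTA
copy: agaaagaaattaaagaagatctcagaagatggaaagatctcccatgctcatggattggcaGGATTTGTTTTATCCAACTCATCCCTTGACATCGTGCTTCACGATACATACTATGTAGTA
Position by position, 16 of 60 bases were equal before the edge and 59 of 60 after it. The next longest copies were less alike, 3260 bases on chromosome 2 with 97.362% identity and 2875 bases on chromosome 4 with 93.009%.

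Of the 100 genes, 91 passed the filter on low counts and were tested, 82 nuclear and 9 mitochondrial. Among the nuclear genes, 8 rose and 4 fell in KO EpiLCs at an adjusted p below 0.1, that is 14.6% of 82, while 24.3% of the 15746 genes tested were called (11.8% higher and 12.5% lower). The median log2 fold change of the 82 genes was 0.06, against 0.0014 over all genes tested, and it was 0.039 without WT replicate 1, 0.032 without WT replicate 3 and 0.016 without KO replicate 2. Most of the chain lay close to no change. An absolute log2 fold change under 0.25 was found in 67 of 82 genes, and in 8402 of the 15746 genes tested. The 95% confidence interval lay within ±0.5 for 67 of the 82 genes, and for 5965 of all genes tested. The estimates of the 82 genes were more precise than those of most genes, with a median SE of 0.10 on the log2 scale against 0.16 over all genes tested. The 3 KO and the 3 WT libraries did not overlap in 15 of the 82 genes, 10 above and 5 below, against a background of 33.7% of the genes tested (16.6% above and 17.1% below). Where the call also asked for a log2 fold change of 1 or more in size, Cox7b2 was the 1 gene of the chain that met it, against 6.21% of the genes tested. In bulk samples, fewer cells that express a gene and less RNA per cell cannot be told apart.

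The summed RNA counts of the chain's genes were close in both groups. The 87 nuclear genes summed to 12003 ± 569 CPM in WT and 12316 ± 540 in KO EpiLCs, or 1.15% to 1.26% of a library's counts. The 13 mitochondrial genes summed to 3925 ± 333 CPM in WT and 4143 ± 540 in KO EpiLCs. The ratio of nuclear to mitochondrial counts was 2.78, 3.34 and 3.10 in WT and 2.94, 2.75 and 3.30 in KO libraries, so that the groups overlapped, with a log2 difference of −0.036. Leaving out 1 library turned its sign: it was −0.11 without WT replicate 1 or KO replicate 3, 0.026 without WT replicate 2 and 0.025 without KO replicate 2. Without mt-Co1 and Atp5f1b, the most abundant gene of each genome, the ratio was 41.8 ± 6 in WT and 41 ± 2.35 in KO EpiLCs. In each library mt-Co1 held 93.6% to 94.2% of the mitochondrial counts, and 6 of the 13 genes had only 0 to 70 counts. So neither ratio measures nuclear against mitochondrial RNA of the chain in the cells.

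**Figure D1:**
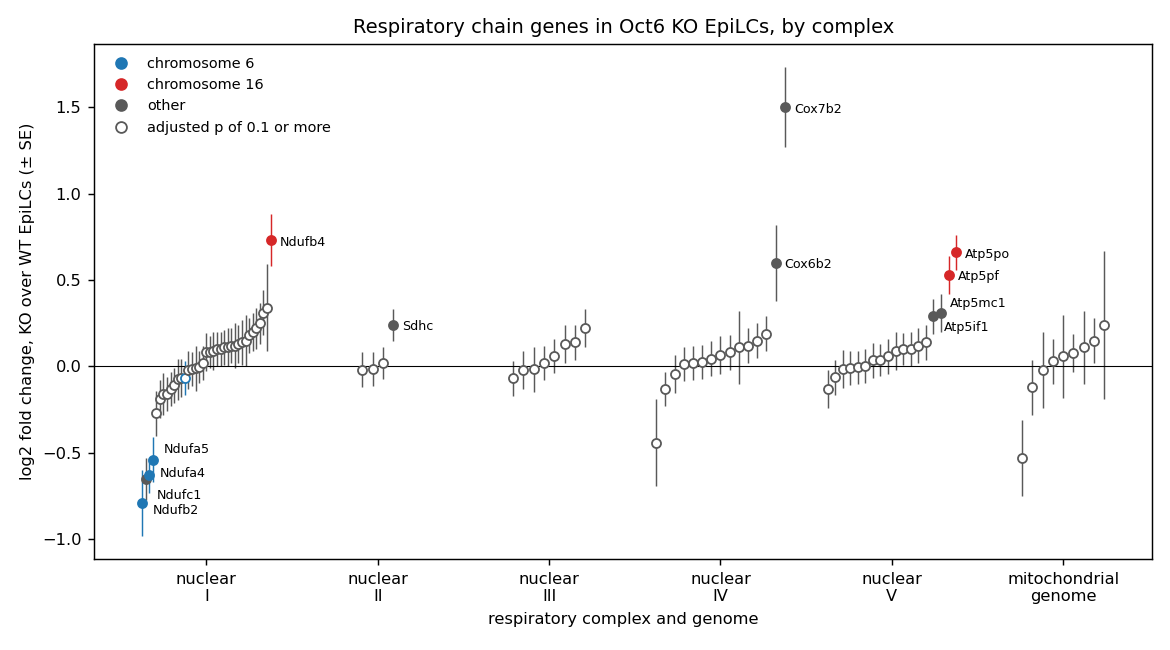
Log2 fold change (KO over WT EpiLCs, ± SE, n = 3 libraries a group) of the 91 genes tested, by complex for the 82 nuclear genes and together for the 9 mitochondrial ones; each point is a gene, filled where the edgeR adjusted p is below 0.1, blue on chromosome 6, red on chromosome 16 and grey elsewhere. Most points lie near 0, and the filled points of complex I and complex V far from it are mainly blue below and red above.

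Complex I takes electrons from NADH. Its 7 nuclear core subunits, which hold the flavin and the iron-sulphur clusters, had log2 fold changes between −0.13 and 0.18 and none was called in edgeR or DESeq2 (0 at an unadjusted p under 0.05). Ndufs1, the largest of them, had 198, 218 and 216 CPM in WT and 265, 233 and 220 in KO libraries. The KO libraries lay above the WT libraries, but the log2 fold change of 0.18 ± 0.10 (SE) did not pass the test (edgeR, adjusted p = 0.234). The calls were among the 30 genes taken as accessory subunits by symbol, Ndufa4 included. Of these, 1 rose and 4 fell (16.7% called, against 24.3% of all genes tested).

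Ndufa4 was the most abundant gene by symbol of complex I per length of its transcript, with 493 ± 37.7 CPM per kilobase in WT and 319 ± 14.5 in KO EpiLCs. Its libraries read 283, 253 and 246 CPM in WT and 166, 177 and 163 in KO. All KO libraries were below all WT libraries, and it fell by 0.63 ± 0.10 (SE) on the log2 scale (edgeR, adjusted p = 1.3e-04). Its paralog Ndufa4l2, which is induced in hypoxia and lies outside the symbols chosen, was near the floor with 8, 31 and 40 counts in WT and 2, 12 and 16 in KO libraries.

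Ndufa5 and Ndufb2 are accessory subunits, of the peripheral and the membrane arm. Ndufa5 had 46.3, 34.7 and 38.1 CPM in WT and 26.7, 30.2 and 25.3 in KO libraries, and it fell by 0.54 ± 0.13 (SE) on the log2 scale (edgeR, adjusted p = 0.00614). Ndufb2 had 10.2, 11.6 and 14.6 CPM in WT and 7.37, 8.02 and 5.72 in KO libraries, and it fell by 0.79 ± 0.19 (SE) on the log2 scale (edgeR, adjusted p = 0.00679). In both the KO libraries stood below the WT libraries without overlap. Ndufb2 lies opposite to Braf on the other strand. The study's libraries were stranded, but the sources used here do not state whether counting used the strand. Where it did not, reads of overlapping genes cannot be told apart.

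Ndufc1, a small membrane arm subunit whose gene is on chromosome 3, had 52.4, 59 and 52.8 CPM in WT and 30.4, 38.8 and 35.1 in KO libraries. It fell by 0.65 ± 0.12 (SE) on the log2 scale, without overlap (edgeR, adjusted p = 5.4e-04). Its partner by name, Ndufc2, had 91 ± 7.84 CPM in WT and 98.2 ± 8.61 in KO EpiLCs, which overlapped.

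Ndufb4 was the subunit of complex I that rose. It had 15.5, 21.2 and 17.1 CPM in WT and 26.3, 33.9 and 28.8 in KO libraries. Each KO library was above each WT library, with a log2 fold change of 0.73 ± 0.15 (SE) (edgeR, adjusted p = 0.00143), although 38% of the 100-base windows of its transcript have an identical copy elsewhere in the genome. Ndufa3 (0.31), Ndufa1 (0.25) and Ndufb11 (−0.27), which were named for their libraries that did not overlap, had adjusted p of 0.122, 0.174 and 0.168 in edgeR. With the replicate number as a block, Ndufa3 (adjusted p = 0.0811) and Ndufb11 (adjusted p = 0.0754) were called and Ndufa1 was not.

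Complex II oxidizes succinate and is at the same time an enzyme of the tricarboxylic acid cycle. The flavoprotein Sdha, the iron-sulphur subunit Sdhb and the membrane anchor Sdhd had log2 fold changes between −0.019 and 0.022. Sdhd was the most abundant per length, with 108 ± 8.26 CPM per kilobase in WT and 107 ± 10.7 in KO EpiLCs. The other anchor, Sdhc, had 75.6, 81 and 80.4 CPM in WT and 91.6, 93.9 and 94.2 in KO libraries. The KO libraries were above the WT libraries, and it rose by a log2 fold change of 0.24 ± 0.095 (SE) (edgeR, adjusted p = 0.0893). This call was lost when any 1 of the 6 libraries was left out, the adjusted p then lying between 0.112 and 0.236.

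None of the 8 nuclear genes of complex III, which passes electrons from ubiquinol to cytochrome c, was called in edgeR or DESeq2 (0 at an unadjusted p under 0.05). Their log2 fold changes ran from −0.069 for Uqcrc2, a core protein, to 0.22 for Uqcr10, a small subunit. Uqcr10 was the most abundant per length, with 214 ± 16.1 CPM per kilobase in WT and 249 ± 36.8 in KO EpiLCs. Its libraries overlapped, and of the 6 fits with a library left out it was called in 1, that without KO replicate 1 (0.32, adjusted p = 0.0841).

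Complex IV reduces oxygen, and its nuclear subunits come in isoforms. Of the 15 genes tested with a Cox symbol, which leaves out Ndufa4, 2 rose (13.3%, against 24.3% of all genes tested) and none fell. These were Cox7b2 and Cox6b2, isoforms known from testis, while Cox8c, also a testis isoform, had 0 to 2 counts a library. Cox7b2 had 3.43, 2.92 and 4.13 CPM in WT and 8.34, 8.95 and 12.6 in KO libraries. The groups were far apart, all KO libraries being above all WT libraries, with a log2 fold change of 1.50 ± 0.23 (SE), the largest among the genes of the chain (edgeR, adjusted p = 1.1e-04). The common isoform Cox7b was far more abundant, with 162, 159 and 177 CPM in WT and 159, 191 and 164 in KO libraries, and its log2 fold change of 0.045 had a 95% confidence interval from −0.17 to 0.26.

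Cox6b2, the testis counterpart of Cox6b1, had 8.66, 4.56 and 7.58 CPM in WT and 11.7, 8.49 and 11.5 in KO libraries. The lowest KO library was below the highest WT library, and the log2 fold change was 0.60 ± 0.22 (SE) (edgeR, adjusted p = 0.0666). Without WT replicate 2 it was 0.38 (adjusted p = 0.27), without KO replicate 1 it was 0.51 (adjusted p = 0.203) and without KO replicate 3 it was 0.53 (adjusted p = 0.191), each time above the threshold of 0.1. With the replicate number as a block it was 0.63 (adjusted p = 0.00824), and within each of the 3 pairs of the same number the KO library was the higher. Cox6b1 had 105 ± 4.51 CPM in WT and 96.3 ± 7.81 in KO EpiLCs (log2 fold change −0.13, adjusted p = 0.43).

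The other isoform pairs kept to the common form in both groups. Cox4i1 had 605 ± 52 CPM per kilobase in WT and 613 ± 31.3 in KO EpiLCs, the most of complex IV, and the hypoxia isoform Cox4i2 had 1 to 6 counts a library. The muscle isoforms Cox6a2 and Cox8b had no count in any library, which allows up to 3 counts a library. Their common partners Cox6a1 (88.6 ± 14 CPM in WT, 85.9 ± 2.46 in KO) and Cox8a (146 ± 13.1 and 166 ± 12.8) were not called. Cox7a1, the heart and muscle form, had 4.71 ± 0.984 CPM in WT and 3.48 ± 0.588 in KO EpiLCs (log2 fold change −0.44 ± 0.25 SE, adjusted p = 0.263). Cox7a2, its form in most tissues, had 143 ± 11.7 and 144 ± 15.2 CPM, and Cox7a2l, which joins complexes III and IV into supercomplexes, had 129 ± 16.2 and 136 ± 6.97.

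ATP synthase held the largest share of the counts, 5644 ± 321 CPM of the 12003 in WT EpiLCs. Its catalytic β subunit, Atp5f1b, was the most abundant nuclear gene of the chain, with 1144 ± 77.1 CPM per kilobase in WT and 1171 ± 22.9 in KO EpiLCs. The α subunit, Atp5f1a, had 1488 ± 127 CPM in WT and 1483 ± 39.4 in KO EpiLCs, so that both subunits of the catalytic head had log2 fold changes under 0.05 in size (−0.0052 and 0.035). Of the 18 genes tested, 4 rose and none fell (22.2% called, against 24.3% of all genes tested).

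Atp5po and Atp5pf are subunits of the peripheral stalk that holds the head in place. Atp5po had 58.5, 59.6 and 53.4 CPM in WT and 87.8, 95.3 and 88.2 in KO libraries, a log2 fold change of 0.66 ± 0.10 (SE) (edgeR, adjusted p = 1.1e-04). Atp5pf had 64, 58.6 and 57.6 CPM in WT and 81.8, 97.7 and 80.8 in KO libraries, a log2 fold change of 0.53 ± 0.11 (SE) (edgeR, adjusted p = 0.00148). Neither gene overlapped between groups. The other stalk subunits, Atp5pb (log2 fold change 0.10) and Atp5pd (−0.063), were not called. Atp5pf overlaps Gabpa and Jam2 in the annotation, so part of its reads may belong to either. A second identifier with the symbol Atp5po had no counts.

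The remaining calls of complex V were smaller. Atp5if1, the inhibitor that stops the enzyme from running backwards, had 111, 130 and 123 CPM in WT and 145, 142 and 159 in KO libraries. The groups did not overlap and the log2 fold change was 0.29 ± 0.10 (SE) (edgeR, adjusted p = 0.0448), but without WT replicate 1 (0.23, adjusted p = 0.185) or KO replicate 3 (0.24, adjusted p = 0.178) the call was lost. Atp5mc1, Atp5mc2 and Atp5mc3 all encode the same mature c subunit of the rotor. Atp5mc1 had 163, 140 and 120 CPM in WT and 174, 189 and 159 in KO libraries, which overlapped, with a log2 fold change of 0.31 ± 0.11 (SE) (edgeR, adjusted p = 0.0666). The call ended without WT replicate 2 (0.30, adjusted p = 0.125) or 3 (0.20, adjusted p = 0.252) and without KO replicate 1 (0.30, adjusted p = 0.149) or 2 (0.24, adjusted p = 0.238), while a block for the replicate number gave an adjusted p of 0.0098. Atp5mc2 (0.12) and Atp5mc3 (0.14) were not called. Of the 100-base windows of their transcripts, 65.3% had an identical copy elsewhere for Atp5mc1 and 87.5% for Atp5mc2, where reads can be split between copies. The same held for Atp5mg (57.4%), Cox7c (68.3%) and Ndufs5 (61.8%), and without these 5 genes 7 nuclear genes were higher and 4 lower. Ndufs5 had 42 to 95 counts and its copy Ndufs5-ps 231 to 327.

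**Figure D2:**
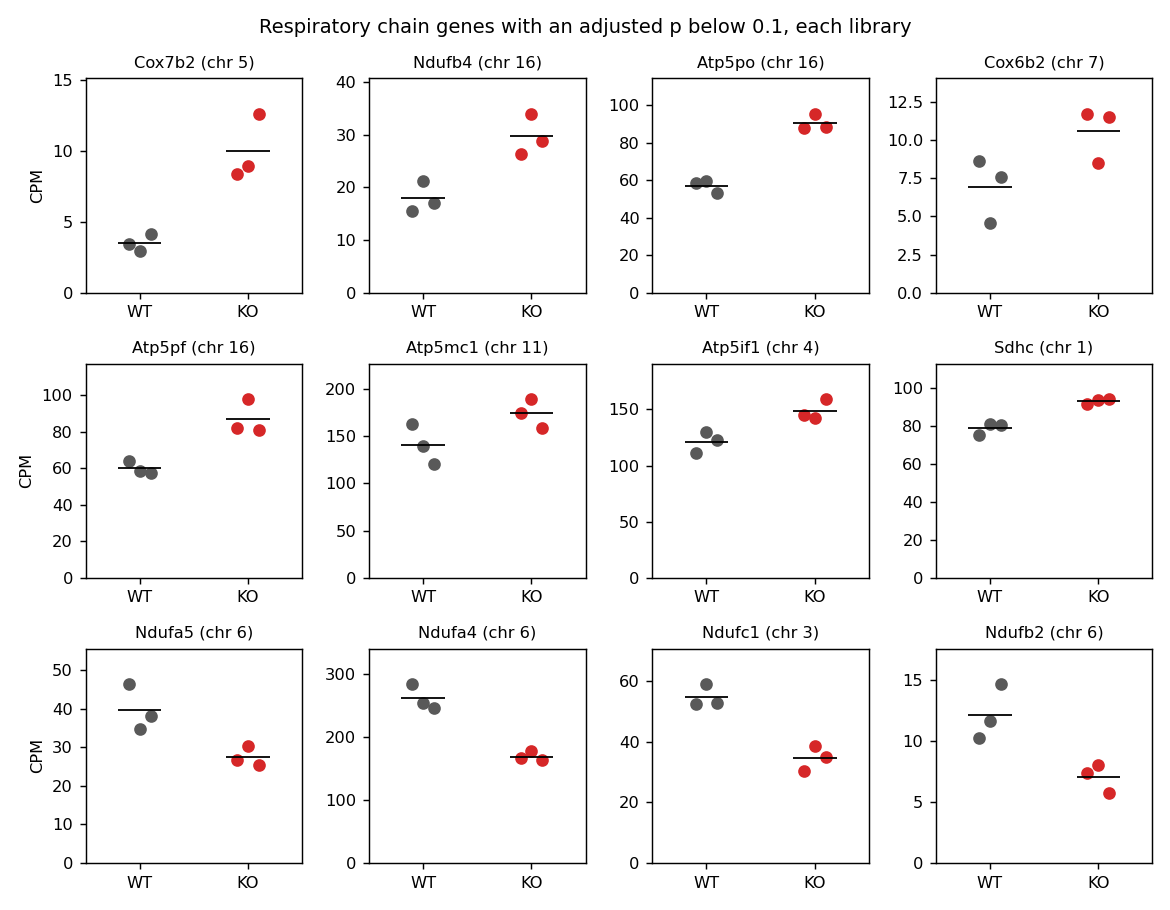
CPM in each library (points; WT grey, KO red) and group means (bars) of the 12 nuclear genes with an edgeR adjusted p below 0.1, ordered by log2 fold change, each panel starting at 0. The groups overlap in Cox6b2 and Atp5mc1, and in the other 10 genes every KO library stands on one side of every WT library.

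The called genes were set beside the genes around them, because chromosomes 6 and 16 were shifted over much of their length in KO EpiLCs: 391 of 773 genes tested on chromosome 6 were called (50.6%, median log2 fold change −0.40), as were 310 of 471 on chromosome 16 (65.8%, median 0.55). Of the 4 genes of the chain on chromosome 6, Ndufa4, Ndufa5 and Ndufb2 fell. The 3 tested on chromosome 16, Ndufb4, Atp5pf and Atp5po, all rose. These 2 chromosomes held 6 of the 12 calls, and outside them 6 of 75 nuclear genes of the chain (8%) were called, 5 higher and 1 lower, against 21.6% of all genes tested there.

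For each gene, the median log2 fold change of the other genes tested within 5 Mb on either side was taken. It was −0.60 around Ndufa4 (22 genes), −0.49 around Ndufa5 (29 genes) and −0.50 around Ndufb2 (54 genes). Around Ndufa9, the fourth gene of chromosome 6 and a subunit of the peripheral arm, it was −0.067 (88 genes), and Ndufa9 itself, with 150 ± 8.63 CPM in WT and 144 ± 9.78 in KO EpiLCs, had a log2 fold change of −0.067 and was not called. Its difference from the other 3 was not tested. On chromosome 16 the median was 0.58 around Ndufb4 (60 genes), 0.60 around Atp5pf (15 genes) and 0.47 around Atp5po (55 genes). Ndufc1 lies on chromosome 3 at chr3:51309273-51316412 (GRCm39), and the 41 genes around it had a median of −0.49, the lowest of the 75 genes outside chromosomes 6 and 16.

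So all 4 genes that fell and 3 of the 8 that rose lay where the surrounding genes moved the same way by a like amount. The median of the neighbours was then entered into the edgeR fit as an offset, a step chosen after seeing the data that takes off by construction what a gene shares with its neighbours and leaves the error of the medians aside. The calls of these 7 genes were not made in that fit. The log2 fold changes left were −0.029 for Ndufa4, −0.041 for Ndufa5, −0.29 for Ndufb2, −0.16 for Ndufc1, 0.15 for Ndufb4, 0.19 for Atp5po and −0.071 for Atp5pf, with adjusted p from 0.235 to 0.885. The calls of Cox7b2 (1.32, adjusted p = 5.7e-04), Cox6b2 (0.57, adjusted p = 0.0921), Atp5mc1 (0.34, adjusted p = 0.0508), Atp5if1 (0.31, adjusted p = 0.042) and Sdhc (0.33, adjusted p = 0.024) remained. The same fit newly called Cox8a higher and Ndufv2 and Uqcrb lower. Uqcrb had a log2 fold change of −0.023 before the offset and neighbours at 0.34, so the offset can make a call by itself. Across the 82 genes, which are not independent, the fold change and the median of the neighbours had a Pearson r of 0.664 and a Spearman rho of 0.31, and across the 75 outside chromosomes 6 and 16 an r of 0.375 and a rho of 0.125. What shifts these stretches was not tested.

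**Figure D3:**
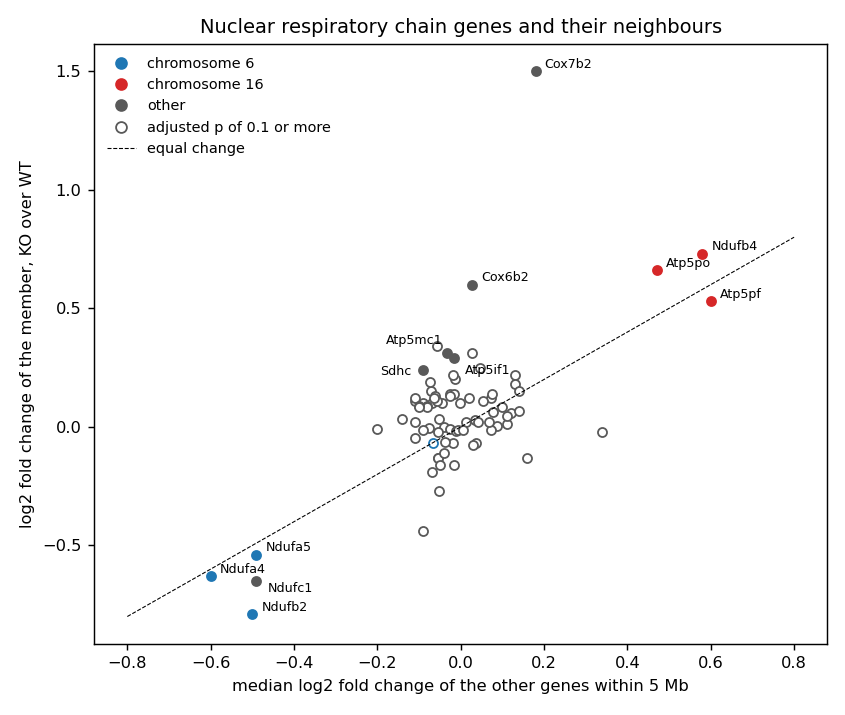
Log2 fold change (KO over WT EpiLCs) of each of the 82 nuclear genes tested against the median log2 fold change of the other genes tested within 5 Mb, blue on chromosome 6, red on chromosome 16, filled where the edgeR adjusted p is below 0.1; the dashed line marks equal change. The 7 filled points at neighbour medians of −0.60 to −0.49 and 0.47 to 0.60 lie near the line, while Cox7b2 stands at 1.50 over neighbours at 0.18.

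Of the 13 genes of the mitochondrial genome, 9 were tested. None was called in edgeR or DESeq2 with genotype alone (1, mt-Nd4, at an unadjusted edgeR p under 0.05). With the replicate number as a block, mt-Nd4 was called lower (edgeR, adjusted p = 0.0368). Log2 fold changes with genotype alone ran from −0.53 to 0.24 with a median of 0.058. The median turned to −0.015 without KO replicate 1 and −0.023 without KO replicate 2, was 0.039 without WT replicate 2 and 0.038 without WT replicate 3, and was 0.11 without WT replicate 1 and 0.17 without KO replicate 3. One gene held nearly all of their counts. mt-Co1, the catalytic subunit of complex IV, took between 93.6% and 94.2% of the counts on the 13 genes in each library. It had 4031, 3552 and 3478 CPM in WT and 3844, 4436 and 3410 in KO libraries, which overlapped (log2 fold change 0.08, 95% confidence interval −0.14 to 0.30). The next was mt-Nd1, a core subunit of complex I, with 144, 104 and 107 CPM in WT and 119, 159 and 116 in KO libraries. Per kilobase of gene, mt-Co1 had a median of 31998 counts over the 6 libraries and mt-Nd1 1629.

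The levels of the other genes differed widely, though several of their ranges overlapped. mt-Cytb, the cytochrome b of complex III, had 410 to 779 counts a library, mt-Nd5 487 to 721, mt-Nd6, the gene read from the other strand, 84 to 132, and mt-Nd2 45 to 80. mt-Nd4 had 54 to 110 counts, mt-Co3 51 to 70 and mt-Co2 10 to 26. mt-Nd3 had 0 to 3 counts, mt-Atp6 0 or 1, and mt-Atp8 and mt-Nd4l none in any library, which allows up to 3. This bound holds for reads that would be counted if present. It need not hold for the transcripts of these genes, all of whose windows have an identical copy elsewhere. The genes of one strand are cut from a common precursor, and yet the neighbours mt-Co1 and mt-Co2 had medians of 31998 and 19.7 counts per kilobase.

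Several of the low genes lie in the stretch that the nuclear copy covers, and mt-Nd2 and mt-Nd6, which were low too, lie outside it. Of the 100-base windows of mt-Co2, mt-Atp8, mt-Atp6, mt-Co3 and mt-Nd4l, 100% had an identical copy elsewhere in the genome, and of mt-Nd3 98.8%. These 6 genes had between 0 and 70 counts, while the 7 genes with smaller shares had between 45 and 57503. The share was 60.8% for mt-Nd4, 30.8% for mt-Co1 and 3.19% for mt-Nd2, and no window of mt-Nd1, mt-Nd5, mt-Nd6 or mt-Cytb had one. The 7 annotated pseudogenes of the copy summed to 6.07 ± 1.54 CPM in WT and 5.93 ± 0.812 in KO EpiLCs. Where reads with several matches are left out, a read that matches both places is counted at neither. The study says that STAR quantified the genes, but not how such reads were treated. The part of the copy in these levels was not tested. Per kilobase, mt-Nd2 (median 56.4 counts) was below mt-Co3 (72.1).

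**Figure D4:**
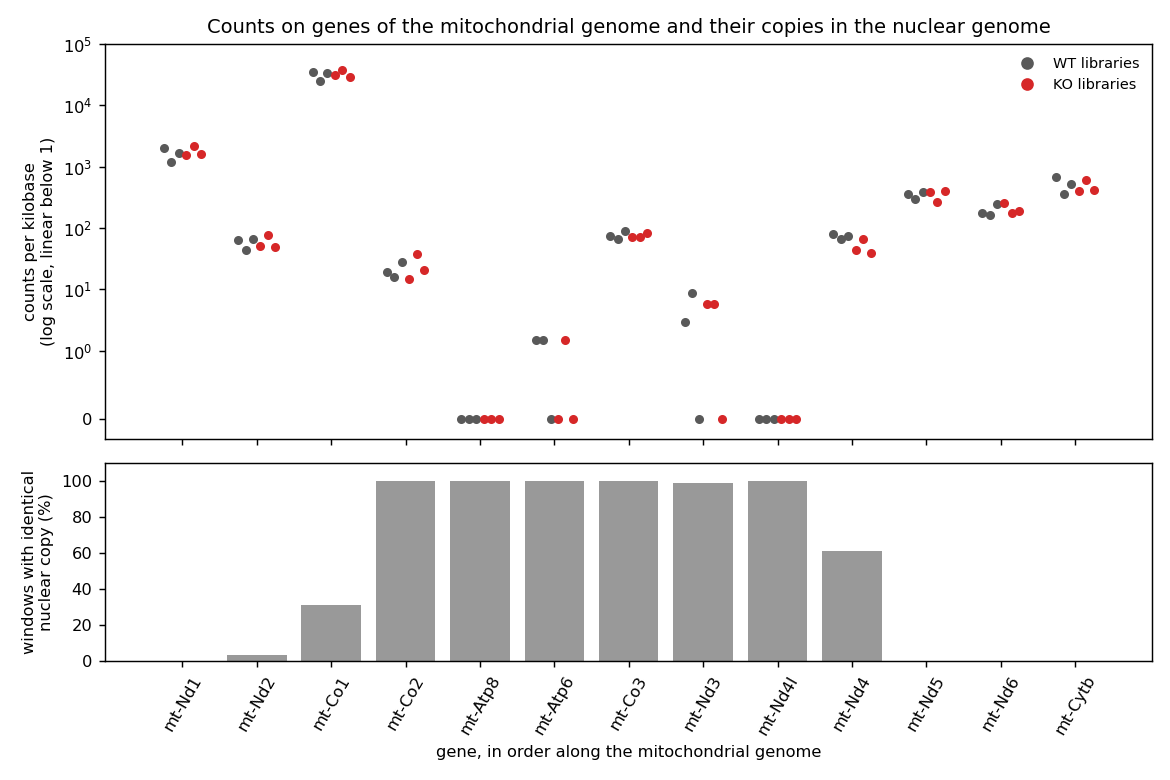
Top, counts per kilobase of gene in each library (log scale, linear below 1; WT grey, KO red) for the 13 genes in their order along the mitochondrial genome; bottom, the percentage of each gene's 100-base windows with an identical copy elsewhere in the genome. WT and KO libraries lie together at each gene, mt-Co1 stands highest, and the genes at 98.8% to 100% are among the lowest.

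mt-Nd4 had the largest difference of the mitochondrial genes. It had 8.21, 8.30 and 6.83 CPM in WT and 4.94, 7.10 and 4.06 in KO libraries. The groups overlapped, and the log2 fold change of −0.53 ± 0.22 (SE) did not pass the test (edgeR, adjusted p = 0.111). It did pass with the replicate number as a block (adjusted p = 0.0368), with library totals in place of TMM (adjusted p = 0.094) and without KO replicate 2 (−0.79, adjusted p = 0.0327). The gene lies at the other end of the nuclear copy, and the rest of complex I from this genome, mt-Nd1 (0.15), mt-Nd2 (0.058), mt-Nd5 (0.029) and mt-Nd6 (0.11), had log2 fold changes above 0. The large ribosomal RNA, mt-Rnr2, which is copied from the same genome and encodes no protein, had 1036 ± 171 CPM in WT and 918 ± 197 in KO EpiLCs, which overlapped. The libraries were depleted of ribosomal RNA, so these values may be what the depletion left and do not measure its level in the cells.

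The genes that serve the chain were taken as lists, whose calls are set against the same 24.3%. Cytochrome c, which carries electrons from complex III to IV, comes as a somatic and a testis form. Somatic Cycs, on chromosome 6, had 115, 125 and 135 CPM in WT and 80.3, 98.1 and 81.5 in KO libraries, and it fell without overlap by 0.53 ± 0.11 (SE) on the log2 scale (edgeR, adjusted p = 0.00141), beside a neighbour median of −0.49. Testis Cyct had 4.33, 6.11 and 9.2 CPM in WT and 11.7, 15.9 and 16.4 in KO libraries, and it rose without overlap by a log2 fold change of 1.15 ± 0.23 (SE) (edgeR, adjusted p = 0.00121), beside a neighbour median of 0.081. Of this list of 9 carriers and further subunits, 1 rose and 2 fell, the second being Ndufa4l2 (−1.38, adjusted p = 0.097), whose libraries are given above.

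Of 23 assembly factors of complex IV tested, 5 were higher and 0 lower, a share of 21.7%. They were Cox17 (0.72, adjusted p = 0.0289), a copper chaperone on chromosome 16, Cox20 (0.79, adjusted p = 0.0373), a chaperone of subunit 2, Coa4 (0.55, adjusted p = 0.0455), Cmc1 (0.55, adjusted p = 0.0599) and Coa7 (0.30, adjusted p = 0.0873). Cox20 was at 2.46, 2.46 and 3.31 CPM in WT and 4.62, 5.55 and 4.21 in KO libraries, without overlap. Of 16 factors of complex I, Timmdc1 (0.58, adjusted p = 0.00119) and Tmem186 (0.45, adjusted p = 0.0102) rose, and both lie on chromosome 16. None of 4 factors of complex II was called in edgeR or DESeq2 (0 at an unadjusted p under 0.05), of 6 of complex III Uqcc2 fell (−0.34, adjusted p = 0.0612), and of 5 of complex V Tmem70 rose, from 25 ± 3.23 to 38.3 ± 3.23 CPM (0.62, adjusted p = 0.00181). The values in parentheses are log2 fold changes and edgeR adjusted p.

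Of 18 genes that keep and transcribe mitochondrial DNA, Mterf2 rose (0.57, adjusted p = 0.0439) and Ssbp1, the single-strand binding protein, whose gene is on chromosome 6, fell (−0.48, adjusted p = 0.00205). Of 16 genes that process mitochondrial RNA, 3 rose and 1 fell. The 3 proteins of mitochondrial RNase P, which frees the transcripts at their tRNAs, were all called but in different directions, Trmt10c (0.69, adjusted p = 4.1e-04, chromosome 16) and Prorp (0.51, adjusted p = 0.00203) higher and Hsd17b10 (−0.41, adjusted p = 0.017) lower. Pnpt1, a component of the RNA degrading complex, rose (0.40, adjusted p = 0.0123).

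The mitochondrial ribosome translates the 13 transcripts, and of its 77 genes tested 6 rose and 5 fell (14.3%), among them Mrpl40 (0.73, adjusted p = 1.1e-04) and Mrpl39 (0.62, adjusted p = 1.2e-04) on chromosome 16 and Mrps35 (−0.53, adjusted p = 9.4e-04) and Mrps25 (−0.48, adjusted p = 0.00266) on chromosome 6. Outside these chromosomes 4 rose and 1 fell, where 21.6% of all genes tested were called. Of 13 enzymes of the tricarboxylic acid cycle, 1 was called, Suclg1 on chromosome 6 (−0.42, adjusted p = 0.0052).

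Of the 11 regulators tested, 2 were called (18.2%, against 24.3% of all genes tested), and none outside chromosomes 6 and 16. Both are factors known for driving nuclear genes of the chain. Nrf1, on chromosome 6, had 131, 134 and 133 CPM in WT and 94, 94.3 and 88.1 in KO libraries. It fell without overlap by 0.53 ± 0.093 (SE) on the log2 scale (edgeR, adjusted p = 4.7e-04), and the genes around it had a median of −0.58. Gabpa, the ETS factor also called NRF2α, lies on chromosome 16 and had 175, 155 and 208 CPM in WT and 280, 295 and 270 in KO libraries. It rose without overlap by a log2 fold change of 0.65 ± 0.11 (SE) (edgeR, adjusted p = 2.8e-04), among genes with a median of 0.53.

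The promoters of the nuclear genes, from 250 bases before to 50 after the start of the canonical transcript in GRCm39, were searched on both strands for the letters that these factors prefer. The core of the NRF1 motif, GCGCA and GCGC with 1 base of any kind between them, was found in 13.8% of the 87 promoters and in 5.82% of those of all 21614 protein-coding genes (8.97% of the 13113 tested). CCGGAAG, an ETS motif, was found in 14.9% of the 87 and in 10.3% of all (15.2% of those tested). Each motif was counted on its own, whether or not matches overlapped. Below are 60 bases around the first match in the gene with the most NRF1 matches, Ndufa13 (4 matches), at chr8:70356026-70356085 on the minus strand, and in the called gene with a match, Ndufb4 (2 matches), at chr16:37474887-37474946 on the minus strand, with the match in capitals.
Ndufa13: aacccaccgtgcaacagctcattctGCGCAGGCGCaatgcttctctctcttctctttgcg
Ndufb4: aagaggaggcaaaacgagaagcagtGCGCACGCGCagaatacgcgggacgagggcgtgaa
Of the 12 genes with an NRF1 match, Ndufb4 was called higher and none lower, with a median log2 fold change of 0.029 and a range from −0.27 to 0.73. Of the 13 genes with an ETS match none was called in edgeR or DESeq2 (0 at an unadjusted p under 0.05), with a median of 0.087 and a range from −0.07 to 0.25. The 59 genes with neither had a median of 0.045 and held the other 11 calls. The background for each of these counts is the 24.3% of all genes tested that were called. Ndufa13, a subunit of the membrane arm, had 84.3 ± 5.88 CPM in WT and 90.1 ± 7.46 in KO EpiLCs (log2 fold change 0.10, adjusted p = 0.581).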

How the data were processed

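RNA-seq counts of 3 WT and 3 KO EpiLC libraries were analysed. Per the study's methods, Fastp trimming was followed by two-pass STAR mapping to GRCm39, which also quantified the genes. The authors deposited the raw counts per Ensembl gene. Identifiers were matched to GENCODE M39 (54749 of 55416). In R 4.3.3, edgeR 4.0.16 was run on the whole table with TMM, filterByExpr (minimum count 10), the quasi-likelihood test with genotype alone and Benjamini-Hochberg adjustment over 15746 genes; calls had an adjusted p below 0.1, and standard errors came from the F statistic. Scripts were tested on simulated data. DESeq2 1.42.0 was an alternative. Copies were sought with BLAST 2.17.0, and per-kilobase values use the canonical transcript, or the gene for the mitochondrial genome. Genes named were those of the mitochondrial genome, every called nuclear gene, the most abundant of each complex, those on chromosomes 6 and 16, the isoform pairs of complex IV and up to 4 called genes of each list; others named were chosen after their values were seen. The genes and lists were chosen with earlier results of these data known.

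The study describes biological replicates. Deviations from the group means correlated at 0.257, 0.298 and 0.122 between libraries of the same number (13078 genes) and at −0.233 to −0.0379 between others. Such deviations cancel out within a group, so the negative values are partly forced. The numbers were taken to pair the samples, yet the calls reported come from the fit with genotype alone. The replicate block was an alternative, with 2357 genes called higher and 2407 lower, against 1864 and 1969. The 13 mitochondrial genes, taken as gene-level counts, carry counting error as well as the spread between libraries.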

Additional observations from a re-analysis of the deposited data

How the results depend on the processing

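The counts were recomputed with DESeq2, with RLE size factors, with library totals alone, with no filter or a stricter filter, with the replicate block, without chromosomes 6 and 16, without the mitochondrial genome and without each library in turn. The 8 nuclear genes higher in KO EpiLCs became 5 at an adjusted p below 0.05, 4 without chromosomes 6 and 16, and 5 to 7 with 1 library left out. The 4 lower genes became 1 without chromosomes 6 and 16 and 2 with the median of the neighbours removed, and stayed 4 with each library left out. These 2 were Ndufv2 and Uqcrb, whose neighbours were higher, and Cox8a was newly called higher there. Under that removal Atp5pf turned to −0.071. Of the mitochondrial genes, 1 (mt-Nd4) was called lower under the replicate block and 1 under library totals alone, and 0 to 1 with 1 library left out. The replicate block ended no call and added Ndufa3, Ndufb11 and mt-Nd4. The shifts of chromosomes 6 and 16 and of the genes around Ndufc1 are tied to a single KO clone, and the cause was not tested. The 9 genes of the chain under the filter's minimum count were not tested in the fit reported.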
